A study of Mus musculus with 6 samples.

Results

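Complex I, the NADH dehydrogenase of the mitochondrial respiratory chain, was described here through its nuclear genes in mouse gastrocnemius, the large calf muscle. The genes were taken from the deposited tables by symbol: Ndufa, Ndufb, Ndufc, Ndufs or Ndufv followed by a number, and Ndufaf followed by a number for assembly factors, leaving out names marked as pseudogenes with -ps. This gave 48 genes of 35491 named entries, 40 under subunit names and 8 Ndufaf assembly factors. RNA was sequenced from 3 Control mice and 3 Ogg1Tg mice, all male, of a C57BL/6J background, aged 20 weeks, on chow and untreated. Ogg1Tg mice carry human OGG1-1a, a DNA glycosylase for oxidised guanine, fused to a mitochondrial targeting signal. A CMV/AG promoter, which is active in most tissues, drives the transgene, so cells other than muscle fibres can carry it too. The comparison asks how muscle transcripts differ when this repair enzyme is directed to mitochondria.

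Complex I oxidises NADH, passes the electrons along a chain of iron-sulphur clusters to ubiquinone, and pumps protons across the inner membrane. It has a peripheral arm that reaches into the matrix and holds the electron path, and a membrane arm that holds the pumps. Its central membrane subunits are encoded by mitochondrial DNA, the others by the nucleus, and dedicated assembly factors join the pieces without staying in the finished enzyme. Muscle fibres that work aerobically depend on it to make ATP, and fibres rich in mitochondria hold more of it.

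Values are gene read counts divided by 1 factor per library, here called scaled reads, and n = 3 mice per group throughout. Where 3 values of a group are given, they stand in the order of replicates 1, 2 and 3. Reads in named genes ran from 45189860 to 56126407 per library. Differences were tested with limma on log2(scaled reads + 1) over 23312 genes with a mean of at least 1, called at an adjusted p under 0.05, and 0.545% of genes were called, 0.150% lower and 0.395% higher in Ogg1Tg muscle. Mouse Ogg1 does not report the human transgene, so the labels were not checked through it. The fibre genes Acta1, Ckm, Myh4, Myh1, Tnnt3, Actn3, Mb and Ttn summed to 15142970 to 18943171 scaled reads in Control and 15031253, 18903227 and 10556755 in Ogg1Tg mice 1, 2 and 3. Ogg1Tg replicate 3 stood apart: 14 immune cell markers summed to 15714 scaled reads there, against 384 to 552 in Control and 337 and 405 in the other Ogg1Tg libraries. All 14 lay above the Control range in that library, and 1 of them, Cd3g, was at 0 in each Control library. The 8 adipocyte markers summed to 12889 in Ogg1Tg replicate 3 and 3969 to 5141 in the other 5. In a whole-muscle sample, fewer muscle fibres and less RNA per fibre cannot be told apart.

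No complex I gene was called. All 47 members that passed the filter had a log2 fold change below 0, against 52.8% of all genes tested. No difference passed the limma test, which weighs the spread between mice together with a trend over genes. The 39 tested genes with subunit names had a median log2 fold change of -0.34, a change of -20.8%, and the 8 assembly factors one of -0.069, beside -0.025 for all genes tested. At an unadjusted p under 0.05 limma gave 7 members, or 14.9% of 47, all lower, where 6.78% of all genes were lower at that level and 11.0% passed it in either direction. Among them were Ndufs1, Ndufv3, Ndufs4, Ndufa4, Ndufa1 and Ndufaf1. In 8 members every Ogg1Tg value lay below every Control value, which is 17.0% of the 47, against 11.3% of all genes. None had every Ogg1Tg value above every Control value, against 7.03% of all genes. Ogg1Tg replicates 1 and 2 were both below the Control range in the same 8 members, against 17.1% of genes tested without replicate 3. Neither edgeR nor DESeq2 on recovered reads called a member, with a lowest adjusted p of 0.27 and 0.12, where they called 0.845% and 3.42% of genes.

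With the deposited scaling, much of the median came from Ogg1Tg replicate 3, which had the lowest value of the 6 libraries in 43 of the 47 members. That library was lowest in 7000 of all 23312 genes tested. Relative to the Control mean, the subunit median was 0.0066, -0.23 and -0.79 in Ogg1Tg mice 1, 2 and 3, with -0.084 to 0.054 across the Control libraries. The assembly factor median was 0.067, 0.090 and -0.46 in the same 3 mice, with 0.0028 to 0.011 in Control. Ogg1Tg replicate 1 therefore lay within the Control range for subunits, replicates 2 and 3 below it, and for assembly factors replicates 1 and 2 lay just above it. The 8 fibre markers had a median of -0.17, 0.11 and -0.78 in these mice, with -0.12 to 0.13 in Control, and all 8 lay below the Control range in replicate 3. Their median log2 fold change was -0.31, with all 8 below 0, and -0.078 without replicate 3. Limma and edgeR called none of the 8, and DESeq2 called Mb, the oxygen store myoglobin, as lower at adjusted p = 0.022. The part of fibre content in the complex I values was not tested. Of the 39 subunit genes, 38 lay below the whole Control range in replicate 3, 31 in replicate 2 and 8 in replicate 1. Of the 8 assembly factors these counts were 6, 2 and 2. Over all 23312 genes tested they were 8557, 6674 and 7124, in the same order of replicates 3, 2 and 1. Without replicate 3 the subunit median was -0.10, the assembly factor median 0.032, and 34 of 39 subunit genes and 3 of 8 assembly factors remained below 0, against 55.5% of all genes. No member was called in that fit, where 1.86% of genes were.

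**Figure D1:**
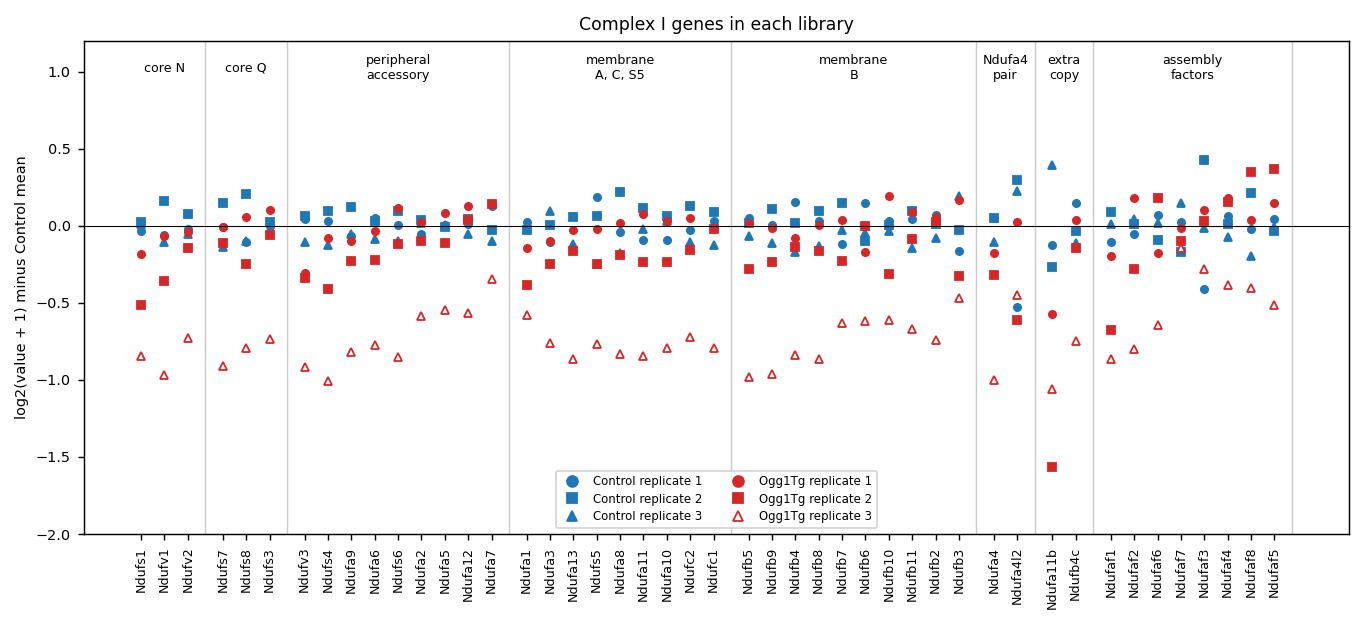
Difference of log2(scaled reads + 1) from the Control mean (vertical axis) for 46 tested complex I genes (horizontal axis), grouped by role, with 1 point per library. The open red triangles of Ogg1Tg replicate 3 are the lowest points in 42 genes, while Ogg1Tg replicate 1 lies mostly among the blue Control points.

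The scaling of that library bears on its level. The deposited factor put its named reads at a total of 45456582 scaled reads, against 62344492 to 72209954 in the other 5. When the libraries were scaled to their total reads instead, an alternative chosen after seeing these totals, the median of all genes moved from -0.025 to 0.21. The subunit median became -0.091 and the assembly factor median 0.18, with 30 subunit genes and 2 assembly factors below 0, against 28.4% of all genes. By mouse, the subunit median with total reads was 0.14, -0.22 and -0.20 in Ogg1Tg mice 1, 2 and 3, with -0.067 to 0.073 in Control. Replicate 3 was then no lower than replicate 2. The all-gene medians were 0.083, -0.018 and 0.55 in the same 3 mice. Relative to the all-gene median the subunits stood at -0.31 with the deposited scaling and -0.30 with total reads, and the assembly factors at -0.044 and -0.037. Either scaling moves all genes of a library alike, apart from the added 1 and the filter. The likeness of these gaps was therefore fixed in advance and says nothing on which scaling is right. As a share of reads in named genes, the subunit genes took 0.217%, 0.242% and 0.225% in the Control mice and 0.240%, 0.193% and 0.189% in Ogg1Tg mice 1, 2 and 3, so Ogg1Tg replicates 2 and 3 lay below the Control range and replicate 1 within it. The assembly factors took 0.00755% to 0.00832% in Control and 0.00795% to 0.00895% in Ogg1Tg muscle, and the groups overlapped.

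The core of the peripheral arm begins with Ndufv1, Ndufv2 and Ndufs1, which take electrons from NADH. Ndufv1 binds NADH and the flavin that receives its electrons. It measured 6347, 7384 and 6153 in the Control mice and 6314, 5162 and 3374 in the Ogg1Tg mice, and Ogg1Tg replicate 1 lay within the Control range. The log2 fold change came to -0.46 ± 0.22 (SE) at limma adjusted p = 0.48. Ndufv2, an iron-sulphur partner of Ndufv1, measured 6594, 7067 and 6439 in the Control mice and 6516, 6051 and 4033 in the Ogg1Tg mice. Its log2 fold change came to -0.31 ± 0.18 (SE) at limma adjusted p = 0.59, and Ogg1Tg replicate 1 again lay among the Control values. Ndufs1, the large subunit that carries several iron-sulphur clusters, measured 12095, 12635 and 12497 in the Control mice and 10909, 8684 and 6909.5 in the Ogg1Tg mice. Here the groups did not overlap, and Ogg1Tg replicate 1 was the nearest to Control. The log2 fold change came to -0.51 ± 0.18 (SE) at limma adjusted p = 0.32, and -0.35 ± 0.11 (SE) with limma adjusted p = 0.16 without Ogg1Tg replicate 3. Ndufs1 lies on chromosome 1 from 63143596 to 63176833 (mm10, minus strand), and 146 of its 2819 exon bases are also exon of the antisense gene Ino80dos.

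The quinone part of the arm holds, among its core subunits, Ndufs3, Ndufs7 and Ndufs8. Ndufs7, which carries the iron-sulphur cluster next to ubiquinone, measured 7371, 8187 and 6734 in the Control mice and 7370.1, 6839 and 3943 in the Ogg1Tg mice. Its Ogg1Tg replicates 1 and 2 lay within the Control range, and the log2 fold change came to -0.34 ± 0.23 (SE) at limma adjusted p = 0.62. Ndufs8, a ferredoxin-like subunit, measured 2939, 3631 and 2945 in the Control mice and 3283, 2654 and 1818 in the Ogg1Tg mice. Only replicate 1 of the Ogg1Tg mice lay within the Control range, and the log2 fold change came to -0.33 ± 0.21 (SE) at limma adjusted p = 0.61. Ndufs3, an early scaffold of the same part, measured 3783, 3851 and 3730.3 in the Control mice and 4057, 3631 and 2271 in the Ogg1Tg mice. Its Ogg1Tg replicate 1 was above the Control range and replicate 3 far below it, with a log2 fold change of -0.23 ± 0.20 (SE) and limma adjusted p = 0.71. In Ndufs3, Ndufs7 and Ndufs8 alike, the low value of Ogg1Tg replicate 3 lay outside the Control range.

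Accessory subunits surround this core, and 9 of them sit on the peripheral arm: Ndufv3, Ndufs4, Ndufs6, Ndufa2, Ndufa5, Ndufa6, Ndufa7, Ndufa9 and Ndufa12. None was called, and their log2 fold changes had a median of -0.29 and ran from -0.52 to -0.021, the widest range of the subunit groups set by position. The lower end was Ndufv3, a small subunit of the NADH-oxidising end, at 1962, 1992 and 1774 in the Control mice and 1541, 1509 and 1012 in the Ogg1Tg mice. Its groups did not overlap, the log2 fold change came to -0.52 ± 0.17 (SE) at limma adjusted p = 0.32, and without Ogg1Tg replicate 3 it was -0.32 with limma adjusted p = 0.16. Ndufs4, whose loss causes Leigh syndrome in people and a like disease in mice, measured 3531, 3679 and 3159 in the Control mice and 3268, 2593 and 1715 in the Ogg1Tg mice. In Ndufs4 only Ogg1Tg replicate 1 reached into the Control range, and the log2 fold change came to -0.50 ± 0.22 (SE) at limma adjusted p = 0.44. At the upper end were Ndufa7, Ndufa12 and Ndufa5. Ndufa7 measured 1416, 1270.1 and 1213 in the Control mice and 1429.6, 1430.1 and 1022 in the Ogg1Tg mice, with Ogg1Tg replicates 1 and 2 above every Control value and replicate 3 below them. This gene's log2 fold change came to -0.021 ± 0.16 (SE) at limma adjusted p = 0.97, and the 95% interval from -0.38 to 0.34 leaves room for a change in either direction. Ndufa12 measured 3527, 3607 and 3369 in the Control mice and 3820.0, 3585 and 2359 in the Ogg1Tg mice, with a log2 fold change of -0.14 ± 0.18 (SE) and limma adjusted p = 0.81. Ndufa5 was tight in Control and measured 2821, 2798 and 2822 in the Control mice and 2972, 2602 and 1921 in the Ogg1Tg mice, and the log2 fold change came to -0.19 ± 0.16 (SE) at limma adjusted p = 0.70. Ndufa9, a dehydrogenase-like subunit at the joint of the arms, had no overlap either, with means of 4118 ± 309.6 and 3224 ± 792 (SD) and limma adjusted p = 0.50.

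On the membrane arm the nuclear subunits lay within a narrow band. The 9 genes Ndufa1, Ndufa3, Ndufa8, Ndufa10, Ndufa11, Ndufa13, Ndufc1, Ndufc2 and Ndufs5 had log2 fold changes from -0.37 for Ndufa1 to -0.28 for Ndufc1, with a median of -0.34 and none called. Ndufa1, a small subunit encoded on the X chromosome, measured 1464, 1409 and 1444 in the Control mice and 1299.6, 1103 and 963 in the Ogg1Tg mice. It was the 1 gene of the 9 whose groups did not overlap, a share near the 11.3% of all genes lower without overlap. Its log2 fold change was -0.37 ± 0.14 (SE) with limma adjusted p = 0.37. The 10 B subunits, Ndufb2 to Ndufb11, line the far end of the arm and had log2 fold changes from -0.41 for Ndufb5 to -0.21 for Ndufb3, with a median of -0.27, no call and no gene without overlap. Ndufb5 measured 5734, 5606 and 5278 in the Control mice and 5611, 4561 and 2809 in the Ogg1Tg mice, so the difference lay in Ogg1Tg replicates 2 and 3. This gene's log2 fold change came to -0.41 ± 0.23 (SE) at limma adjusted p = 0.55, and -0.13 without replicate 3. No row for Ndufb1 was analysed here. Ndufab1, the acyl carrier protein that also sits in complex I, falls outside the naming rule and had a log2 fold change of -0.31 ± 0.20 (SE) with limma adjusted p = 0.60.

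**Figure D2:**
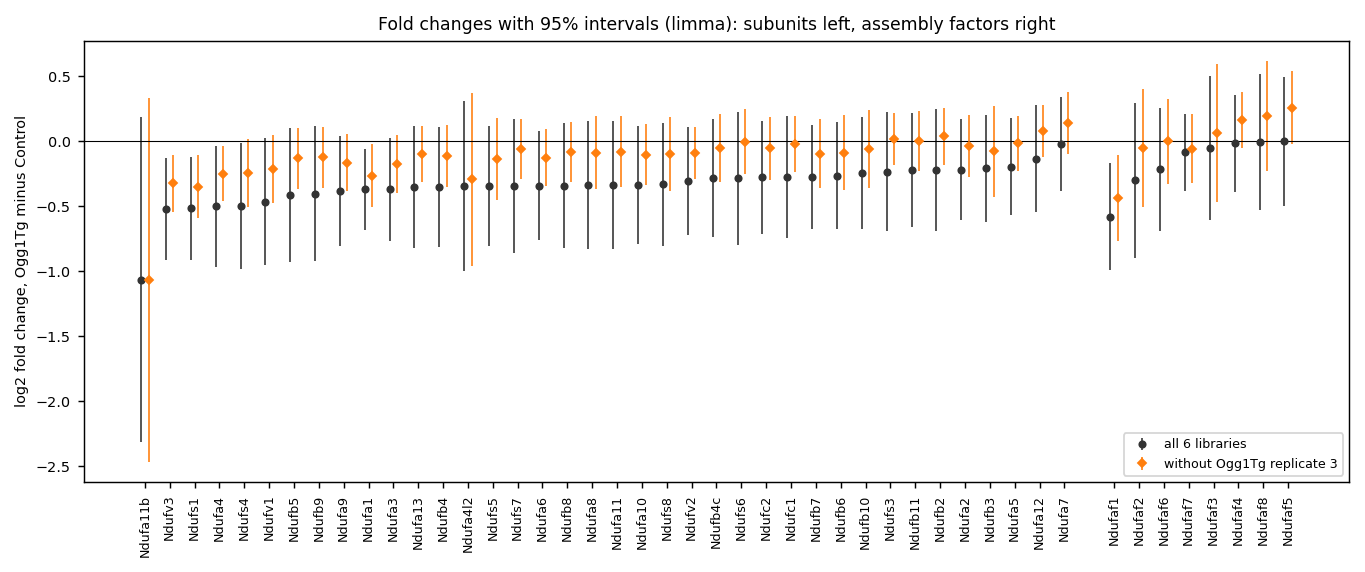
Log2 fold change of Ogg1Tg against Control (vertical axis) with its 95% limma interval for 46 tested genes (horizontal axis), subunits on the left and assembly factors on the right, with all 6 libraries (black) and without Ogg1Tg replicate 3 (orange). The black points all lie below 0, most intervals span 0, and 10 orange points lie above 0.

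The Ndufa4 pair carries complex I names, but Ndufa4 is now assigned to cytochrome c oxidase, and its relative Ndufa4l2 is known as a gene induced by low oxygen. Ndufa4 measured 6243, 6253 and 5609.8 in the Control mice and 5327, 4822 and 3011 in the Ogg1Tg mice and its groups did not overlap. The log2 fold change came to -0.50 ± 0.20 (SE) at limma adjusted p = 0.41. Per kb of transcript, Ndufa4l2 was far rarer, at 186 scaled reads against 9894 for Ndufa4 in Control. It measured 116, 207 and 197 in the Control mice and 171, 109.8 and 123 in the Ogg1Tg mice, with overlapping groups, a log2 fold change of -0.35 ± 0.29 (SE) and limma adjusted p = 0.70. Its exons share 32 bases with Shmt2 on the other strand, and the sources used here do not state whether reads were counted by strand.

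Another 3 members are extra copies that the annotation lists as processed pseudogenes although their symbols do not say so. Ndufb4c, on chromosome 15 from 73809507 to 73809896, measured 1398, 1232 and 1171 in the Control mice and 1297, 1140.3 and 751 in the Ogg1Tg mice and kept to 23.5% to 26.5% of the value of Ndufb4 in each of the 6 libraries. Reads of Ndufb4 and such a copy can be assigned to either, so both values are uncertain. Ndufa11b had 31 reads over the Control group and 17 over the Ogg1Tg group, with no overlap and limma adjusted p = 0.52. Ndufs6b had 0 reads in Control and 4 in Ogg1Tg muscle and was the 1 member that did not pass the filter. The 35 genes left after the copies and the Ndufa4 pair had a median of -0.34, and -0.092 without Ogg1Tg replicate 3.

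Among the 8 assembly factors, log2 fold changes ran from -0.58 for Ndufaf1 to -0.00063 for Ndufaf5. Ndufaf1 acts with Ecsit, Acad9 and Tmem126b in building the membrane arm. Ndufaf1 measured 957, 1095 and 1039 in the Control mice and 899, 643 and 564 in the Ogg1Tg mice, and no Ogg1Tg value reached the Control range. Group means were 1030.4 ± 69.6 and 702 ± 175 (SD), the log2 fold change came to -0.58 ± 0.18 (SE) at limma adjusted p = 0.28, and the 95% interval ran from -0.99 to -0.17. It had the lowest adjusted p of the 47 members, and without Ogg1Tg replicate 3 the log2 fold change was -0.44 with limma adjusted p = 0.21. It lies on chromosome 2 from 119655450 to 119662830 on the minus strand.

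Factors of the quinone part had log2 fold changes near 0, with 95% intervals that leave room for a change in either direction. These ran from -0.60 to 0.50 for Ndufaf3, -0.50 to 0.49 for Ndufaf5 and -0.53 to 0.52 for Ndufaf8. Ndufaf3 and Ndufaf4 work as a pair on that part. Ndufaf3 measured 168, 299 and 221 in the Control mice and 239, 228 and 183 in the Ogg1Tg mice and spread widely within Control. The log2 fold change came to -0.052 ± 0.24 (SE) at limma adjusted p = 0.95. Ndufaf4 measured 1656, 1599 and 1510.1 in the Control mice and 1799, 1762 and 1218 in the Ogg1Tg mice, with Ogg1Tg replicates 1 and 2 above every Control value and replicate 3 below, and the log2 fold change came to -0.017 ± 0.16 (SE) at limma adjusted p = 0.98. Ndufaf5, which hydroxylates Ndufs7, behaved alike, with 574, 544 and 555 in the Control mice and 616, 721 and 389 in the Ogg1Tg mice. This gene's log2 fold change came to -0.00063 ± 0.22 (SE) at limma adjusted p = 1.0, and without replicate 3 it was 0.26 with limma adjusted p = 0.41. Ndufaf8, the partner of Ndufaf5, measured 233, 274 and 206 in the Control mice and 242, 302 and 178 in the Ogg1Tg mice, and the log2 fold change came to -0.0060 ± 0.23 (SE) at limma adjusted p = 1.0. Ndufaf7, a methyltransferase that acts early in assembly, measured 1163, 1016 and 1265 in the Control mice and 1134, 1065 and 1035 in the Ogg1Tg mice and had the smallest SE of the 8, with a log2 fold change of -0.086 ± 0.13 (SE) and limma adjusted p = 0.83. Its 95% interval ran from -0.38 to 0.21. So Ndufs7 was at -0.34 and the enzyme that hydroxylates it at -0.00063. This difference between genes was not tested.

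The other members of the class were Ndufaf2 and Ndufaf6. Ndufaf2, a relative of the subunit Ndufa12 that holds its place late in assembly, measured 178, 186 and 191 in the Control mice and 209, 152 and 106 in the Ogg1Tg mice. The log2 fold change came to -0.30 ± 0.26 (SE) at limma adjusted p = 0.71. Ndufaf6, which acts on the membrane part next to the quinone part, measured 521, 466 and 503 in the Control mice and 439, 561 and 317 in the Ogg1Tg mice with Ogg1Tg replicate 2 as the highest value, and the log2 fold change came to -0.21 ± 0.21 (SE) at limma adjusted p = 0.74. Ndufaf6, Ndufaf3, Ndufaf4, Ndufaf5 and Ndufaf8 lay above 0 without Ogg1Tg replicate 3.

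Subunit genes were far more abundant than assembly factors. Per kb of the principal transcript, the 8 assembly factors ran from 154 scaled reads for Ndufaf3 to 710.1 for Ndufaf1 in Control muscle. The 35 subunit genes ran from 331 for Ndufb2 to 15807 for Ndufb9, with a median of 3621, and 34 of them lay above every assembly factor. The exception, Ndufb2, has an annotated principal transcript of 4371 bases, and a shorter transcript in use would raise its level per kb. Among the highest levels were Ndufb9 with 15807 ± 1191, Ndufa4 with 9894 ± 604 and Ndufs7 with 7559 ± 741 (SD), spaced by more than the larger SD. Over the whole order of 47 genes, 30 of 46 neighbouring pairs differed by less than the larger of their SDs. Of Ndufb9, 193 of 704 exon bases are also exon of Gm49356 on the same strand, which limits its value. Over the 47 tested members, the mean scaled reads, not divided by length, and the log2 fold change had a Spearman rho of -0.41. These genes share the same 6 libraries. The rho pools 2 classes that differ in both: median Control levels were 527 for assembly factors and 3171 for subunit genes. Their median log2 fold changes were -0.069 and -0.34. No rho was computed within the subunit genes.

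**Figure D3:**
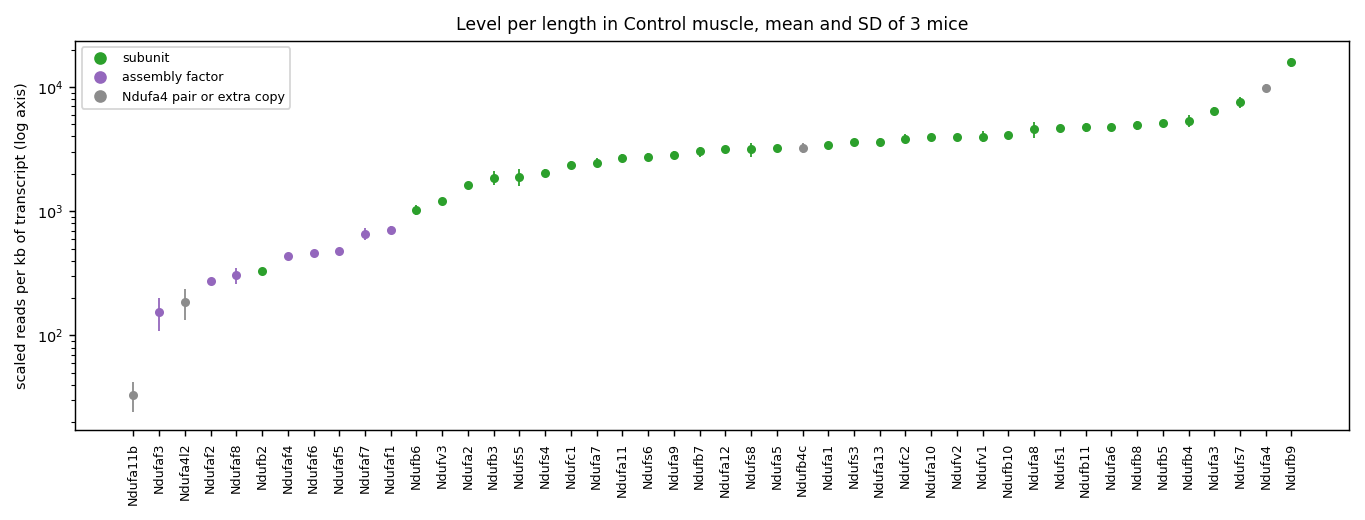
Scaled reads per kb of transcript (vertical log axis) in Control muscle for 46 complex I genes (horizontal axis), as mean with SD of 3 mice. The purple assembly factors lie between 154 and 710.1, below each green subunit gene other than Ndufb2.

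Other genes of complex I came from lists that do not depend on the naming rule. The 10 further assembly factors, Acad9, Ecsit, Foxred1, Nubpl, Timmdc1, Tmem126b, Tmem70, Tmem186, Dmac1 and Dmac2, gave no call with limma, edgeR or DESeq2, and the median log2 fold change was -0.081. Ecsit measured 2984, 2944 and 2592 in the Control mice and 2803, 2741 and 1498 in the Ogg1Tg mice with a log2 fold change of -0.33 ± 0.23 (SE). Acad9 measured 1804, 1867 and 1823 in the Control mice and 2004, 1791 and 1649 in the Ogg1Tg mice, with one of -0.018 ± 0.12 (SE). Tmem126b, a membrane partner of Ndufaf1, stood at -0.28 ± 0.13 (SE) with no overlap between groups and limma adjusted p = 0.49. The 7 subunits encoded by mitochondrial DNA had a median of -0.66, with no call by limma, edgeR or DESeq2, and -0.40, -0.29 and -1.30 in Ogg1Tg mice 1, 2 and 3, with -0.077 to 0.10 in Control. Groups did not overlap in 5 of these 7, every one lower in Ogg1Tg muscle, against 11.3% of all genes lower without overlap. The 7 genes were read in the same 6 libraries and are not separate replicates. mt-Nd4, a proton-pumping subunit, measured 1113986, 1150037 and 1260648 in the Control mice and 886952, 962052 and 476688 in the Ogg1Tg mice, with a log2 fold change of -0.66 ± 0.67 (SE) and limma adjusted p = 0.74. mt-Nd5, another pump, measured 747629.9, 788887 and 862249.9 in the Control mice and 782927, 750892 and 424932 in the Ogg1Tg mice, with overlapping groups, a log2 fold change of -0.34 ± 0.58 (SE) and limma adjusted p = 0.85. Limma draws each SE toward a trend over genes of like level, so the SEs of mt-Nd4 and mt-Nd5 are not the spread between the mice alone. Without Ogg1Tg replicate 3 the mitochondrial list had a median of -0.34, against -0.10 for the nuclear subunit genes.

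Beside complex I, 42 nuclear subunits of complexes II to V had a median of -0.29 and 0.073, -0.21 and -0.70 in Ogg1Tg mice 1, 2 and 3. Limma and edgeR called none of them, and DESeq2 called 1, Cox6a2, as higher at adjusted p = 0.0048. Limma called Cox6a2 too, at adjusted p = 0.023, without Ogg1Tg replicate 3. With the deposited scaling, the medians of these 42 genes had the same order of mice as complex I. With total reads they were 0.21, -0.21 and -0.11 in Ogg1Tg mice 1, 2 and 3. A list of 10 mitochondrial genes outside the respiratory chain, among them Cs and Vdac1, had a median of -0.029. With the deposited scaling this list stood at 0.17, 0.050 and -0.35 in the same mice, again in that order. Of 7 regulators of respiratory genes, none was called by limma, edgeR or DESeq2. Their log2 fold changes ran from -0.57 for Ppargc1a to 0.18, with a median of -0.099 and 6 of 7 below 0. The regulator median was -0.00064, with 4 of 7 below 0, without Ogg1Tg replicate 3. With total-read scaling it was 0.15, with 2 of 7 below 0. Ppargc1a, the coactivator of mitochondrial gene programmes, measured 5213, 4075 and 3711 in the Control mice and 4484, 2750.3 and 1949 in the Ogg1Tg mice, with a log2 fold change of -0.57 ± 0.27 (SE). Esrra, a nuclear receptor that works with it, measured 2735, 2937 and 2490.4 in the Control mice and 2653, 2445 and 1478 in the Ogg1Tg mice, with one of -0.35 ± 0.21 (SE). By contrast, targets of the integrated stress response, a programme of amino acid synthesis and secreted signals, rose. Against 0.395% of all genes, 9 of 10 such targets were called higher by limma. Among them Mthfd2, a mitochondrial folate enzyme, rose from 161, 185 and 171 in the Control mice to 6591, 6013 and 4113 in the Ogg1Tg mice, with a log2 fold change of 4.98 ± 0.18 (SE) and limma adjusted p = 8.5e-06. The 8 slow fibre markers summed to 34239, 77140.0 and 88479 in the Control mice and 115751, 151499 and 95737 in the Ogg1Tg mice, so Control replicate 1 was far below the other Control mice. Their median log2 fold change was 0.99, and 0.59 without Control replicate 1. In 5 of the 8 every Ogg1Tg value was above every Control value, against 7.03% of all genes. Limma and edgeR called none. Of the 8, 5 were higher at an unadjusted limma p under 0.05, against 989 of all 23312 genes tested. DESeq2 called Myh7, Tnnc1 and Tpm3 as higher, with adjusted p from 0.017 to 0.036. It called 3.42% of all genes in either direction. Immune and adipocyte markers were high in the same library in which most complex I genes were lowest with the deposited scaling. The part of fibre type and of those other cell types in the complex I values was not tested, and without that library the subunit median was -0.10.

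**Figure D4:**
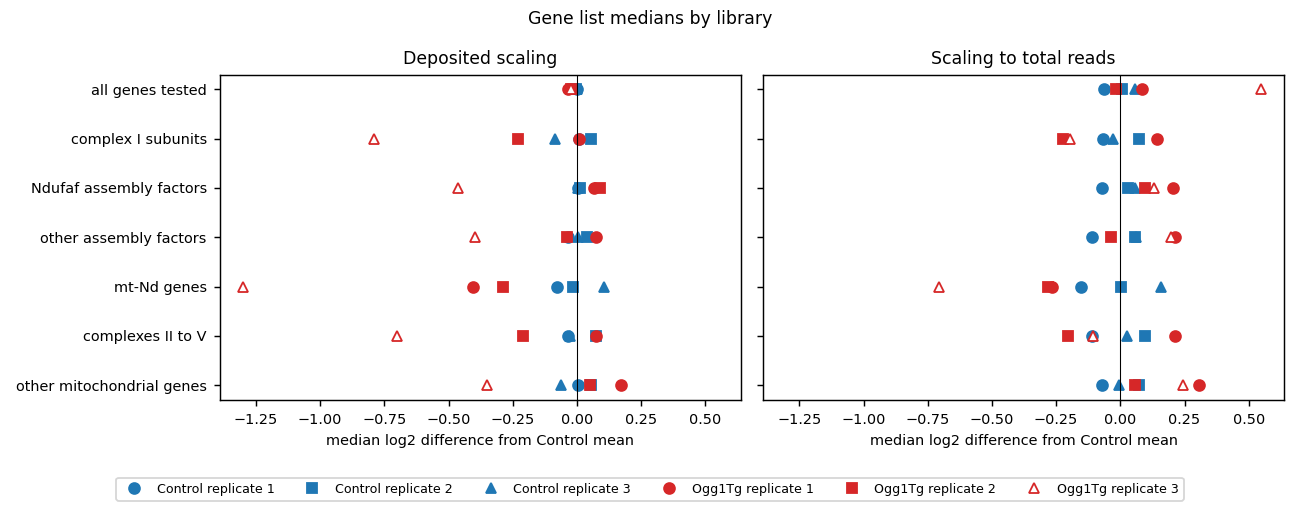
Median log2 difference from the Control mean (horizontal axis) of 7 gene sets (vertical axis), 1 point per library, with the deposited scaling (left) and scaling to total reads (right). Complex I subunits lie at -0.79 in Ogg1Tg replicate 3 on the left and -0.20 on the right, where all genes lie at 0.55.

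Promoters were read because these genes lay on the same side together. RefSeq (GRCm38.p6, the assembly of mm10) had an entry for 39 of the 48 members, taken from 250 bases before to 50 after the start. The NRF1 motif, GCGC followed after 2 bases by GCGC and bound by a regulator of respiratory genes, was present on either strand in 10 of 39, or 25.6%, against 7.0% of 27025 genes. The letters CCGGAAG, bound by GABPA, were in 6 of 39, or 15.4%, against 9.93%, and AAGATGGC of YY1 in 8, or 20.5%, against 3.19%. The letters TCAAGGTCA of ESRRA were in none of the 39 windows and in 0.466% of all. NRF1 letters were in 8 of 32 subunit promoters and 2 of 7 assembly factor promoters, so both classes held them. These are matches of letters and were not tested. The promoters below show such matches in a core subunit and a membrane arm subunit. They also cover the assembly factor with the lowest fold change and an assembly factor with a log2 fold change near 0. Each is given as the 150 bases before the start, 5′ to 3′ on the gene's strand. Motifs are in capitals (NRF1 in Ndufv2, Ndufa11 and Ndufaf4, GABPA in Ndufaf1). In Ndufv2 the capitals are an alternating run in which 2 NRF1 matches overlap.
Ndufv2 (chr17:66101560-66101709, minus strand): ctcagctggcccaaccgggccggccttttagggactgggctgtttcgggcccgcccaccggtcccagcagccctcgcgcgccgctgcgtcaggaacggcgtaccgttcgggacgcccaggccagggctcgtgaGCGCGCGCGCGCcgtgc
Ndufa11 (chr17:56717612-56717761, plus strand): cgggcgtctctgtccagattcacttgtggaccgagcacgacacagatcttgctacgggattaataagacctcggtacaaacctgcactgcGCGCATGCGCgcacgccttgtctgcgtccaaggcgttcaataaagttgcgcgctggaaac
Ndufaf1 (chr2:119662835-119662984, minus strand): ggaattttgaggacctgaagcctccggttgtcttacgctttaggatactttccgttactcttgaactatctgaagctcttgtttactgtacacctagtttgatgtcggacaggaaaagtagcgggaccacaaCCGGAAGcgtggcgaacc
Ndufaf4 (chr4:24897933-24898082, plus strand): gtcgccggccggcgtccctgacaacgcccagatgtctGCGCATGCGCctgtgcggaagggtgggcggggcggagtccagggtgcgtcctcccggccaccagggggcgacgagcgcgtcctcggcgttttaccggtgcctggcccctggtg
Ndufaf4 and Ndufa11 hold the same 10 letters of the NRF1 motif. Their log2 fold changes were -0.017 ± 0.16 (SE) and -0.34 ± 0.22 (SE), with 95% intervals from -0.39 to 0.36 and -0.83 to 0.15, which overlap.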

How the data were processed

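Gene-level RNA-seq values of gastrocnemius from 3 Control and 3 Ogg1Tg mice were used, 1 deposited file per mouse. The deposited values are a signal made by the authors: read counts per gene divided by 1 factor per library. The file names call them FPKM, but each of the 6 columns is made of whole multiples of 1 step, and 100% of values came out whole to within 0.01 read. In Ogg1Tg replicate 3 the step is 1.006, so recovery there is less distinctive. Per the submitters' processing notes, Trimmomatic, SAMtools, HTSeq and mm10 were used. The sources used here do not give the aligner, annotation or strand setting. Entries without a gene name (1824 of 37315) took 2.38% to 3.53% of reads and did not enter the tests.

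Values were transformed as log2(value + 1), so folds of low genes are understated, filtered at a mean of at least 1, and fitted with limma 3.58.1 in R 4.3.3 (variance trend, two-sided, Benjamini-Hochberg over all genes). Tests with edgeR 4.0.16 and DESeq2 1.42.0 used recovered reads. Scripts were tested on simulated data. Positions, exon overlaps and transcript lengths came from GENCODE M21 on GRCm38, which matched all 48 members. The labels do not say whether mice shared litters or days. Limma SEs and p-values rest on the spread between these 6 mice, drawn toward a trend over genes of like level. The members and lists were chosen with earlier results of these data known. Values of 1 member are not reported here, although it enters the counts and medians. Full values are given by a fixed rule for the other core subunits, the Ndufaf genes, the Ndufa4 pair and the 3 lowest and 3 highest other subunits with a mean of at least 100. Ndufa1, Ndufa9, Tmem126b, Mb, Tnnc1, Tpm3, Cox6a2, Hspa9 and the extra copies were added after their values were seen. Alternatives were a pseudocount of 0.1, other filters, scalings and variance models, a replicate block, other tools, and each library left out.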

Additional observations from a re-analysis of the deposited data

How the results depend on the processing

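No complex I gene was called under any alternative run, for subunits or assembly factors. With the replicate block 102 genes were called over all genes and 0 members. Same-numbered mice showed no sign of pairing: the correlations of deviations for numbers 1, 2 and 3 were -0.053, -0.0051 and 0.031. With 3 mice per group, these values cannot exclude that same-numbered mice shared litters or days. Scaling to total reads was added after seeing the data. The total of 127 called genes became 46 without a variance trend, 573 with DESeq2, 362 with total-read scaling and Ogg1Tg replicate 3 left out, and 35 to 425 with 1 library left out. The subunit median of -0.34 was -0.025 with total-read scaling without Ogg1Tg replicate 3, and -0.50 to -0.10 with a library left out at the deposited scaling. The assembly factor median was 0.18 with total-read scaling and 0.10 with that scaling without Ogg1Tg replicate 3. With a library left out at the deposited scaling it ran from -0.19 to 0.032. The count of assembly factors below 0, 8 of 8, was 4 with median-of-ratios rescaling, 5 with edgeR, 5 with DESeq2, 2 with total-read scaling, and 1 to 8 with a library left out, the 1 with total-read scaling too. Subunit genes below 0, 39 of 39, numbered 34 to 39 with a library left out at the deposited scaling. They numbered 30 with total-read scaling and 26 with that scaling without Ogg1Tg replicate 3. The 8 members without overlap became 3 with total-read scaling and 8 to 32 with a library left out, 19 without Control replicate 3 and 32 without Ogg1Tg replicate 1. The cause of these changes was not tested.

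Members near 0 changed sign, with no call on either side, and 15 of the 47 lay above 0 with total-read scaling. Of the genes with full values, the log2 fold changes in that scaling were Ndufs3 0.012, Ndufaf3 0.19, Ndufaf4 0.23, Ndufaf5 0.24, Ndufaf6 0.030, Ndufaf7 0.16, Ndufaf8 0.24, Ndufa5 0.051, Ndufa12 0.11 and Ndufa7 0.22. The other 5 were Ndufb10 0.0025, Ndufb11 0.023, Ndufb2 0.025, Ndufa2 0.026 and Ndufb3 0.036. For the genes with full values alone, those that turned with median-of-ratios rescaling were Ndufaf3 0.0031, Ndufaf4 0.039, Ndufaf5 0.054, Ndufaf8 0.049 and Ndufa7 0.035, with quantile normalization Ndufaf4 0.037 and Ndufa7 0.021, with edgeR Ndufaf4 0.082, Ndufaf5 0.12, Ndufaf8 0.091 and Ndufa7 0.072, and with DESeq2 Ndufaf4 0.054, Ndufaf5 0.092, Ndufaf8 0.063 and Ndufa7 0.044. With 1 library left out their ranges were Ndufs3 -0.40 to 0.019, Ndufaf3 -0.26 to 0.16, Ndufaf4 -0.12 to 0.17, Ndufaf5 -0.19 to 0.26, Ndufaf6 -0.41 to 0.00019, Ndufaf8 -0.18 to 0.19, Ndufa12 -0.27 to 0.081 and Ndufa7 -0.10 to 0.14, and Ndufb11 and Ndufb2 were at 0.00037 and 0.040 without Ogg1Tg replicate 3. Each tested member other than Ndufa11b had at least 83 reads in each library, and the number of mice limits the precision.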

Other observations

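Among the genes compared with complex I, 3 of the 42 nuclear subunits of complexes II to V lay above 0 and 39 below. In 2 of the 42 every Ogg1Tg value was above every Control value, against 7.03% of all genes. In 10 every Ogg1Tg value was below every Control value, against 11.3% of all genes. Cox6a2, the muscle form of a cytochrome c oxidase subunit, measured 10137, 11850.5 and 12243 in the Control mice and 18205, 16425 and 14449 in the Ogg1Tg mice, so every Ogg1Tg value was above every Control value. Its log2 fold change was 0.52 ± 0.15 (SE) with limma adjusted p = 0.25 and DESeq2 adjusted p = 0.0048, and 0.60 with limma adjusted p = 0.023 without Ogg1Tg replicate 3. Hspa9, the mitochondrial chaperone mortalin, measured 16043, 18240.1 and 17358 in the Control mice and 35056, 24295 and 22319 in the Ogg1Tg mice, again without overlap. Its log2 fold change was 0.63 ± 0.20 (SE) with limma adjusted p = 0.28 and DESeq2 adjusted p = 0.0082, and 0.76 with limma adjusted p = 0.030 without that library. These 2 genes were picked out after their values were seen, and 1.86% of all genes were called without that library.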
